A study of Rattus norvegicus with 72 samples.

Results

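The genes described here are 10 members of the growth hormone and insulin-like growth factor (IGF) system: the ligand gene Igf1, the receptor genes Igf1r, Igf2r and Ghr, and the genes of 6 IGF-binding proteins, Igfbp1, Igfbp2, Igfbp3, Igfbp4, Igfbp5 and Igfbp7. They were chosen by name, as the rows of the deposited count tables that carry these symbols, and they are 10 of 32545 genes. RNA-seq was made from adult male Sprague-Dawley rats on normal chow that had lost the right kidney (nephrectomy) or had had its pedicle dissected and left in place (sham). The tissues were microdissected glomeruli, microdissected S1 segments of the proximal tubule, and whole left kidney, at 24, 48 or 72 h after surgery. That gave 18 groups with 4 libraries each. The 2 sham 24 h libraries with number 2 from glomeruli and S1 were left out, so 70 of 72 libraries were used and those 2 groups hold 3. Sham libraries stand for the baseline here, since none came from rats without surgery. Whether each library is from its own rat is not stated in the labels, so the p-values describe variation among libraries, part of which may be technical.

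Growth hormone binds its receptor, Ghr, and signals through Jak2 and Stat5 proteins, and in liver this is the main drive of circulating IGF-I. IGF-I signals through Igf1r, a receptor tyrosine kinase related to the insulin receptor, while Igf2r carries IGF-II and mannose 6-phosphate proteins to lysosomes and does not signal as a growth receptor. Binding proteins hold IGFs in blood and tissue, lengthen their life and can keep them from Igf1r, and proteases such as pregnancy-associated plasma protein A cut them to free the ligand. The IGF system has long been studied in the growth of the kidney that remains after nephrectomy.

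Gene counts per library ranged from 2643258 to 37408599 in glomeruli, from 7883861 to 87368807 in S1 and from 10102869 to 55517383 in whole kidney. In sham libraries all 10 podocyte markers were higher in glomeruli (median log2 difference 7.23) and all 10 proximal tubule markers were higher in S1 (median -7.83). The left-out pair went against its labels: the library labelled glomeruli had a mean podocyte marker value of 1.57 on the log2(RPKM + 1) scale against 7.44 to 8.70 in the other 23, and the library labelled S1 had 7.71 against 0.62 to 1.72. Proximal tubule markers had a mean of 8.27 in the library labelled glomeruli, against 1.78 to 4.14 in the others. In the library labelled S1 it was 4.62 against 5.98 to 8.31, which lies between the ranges of the other glomerulus and S1 libraries. Libraries of a group varied more in the segments than in whole kidney: edgeR put the biological coefficient of variation common to all genes at 0.6254 for glomeruli, 0.713 for S1 and 0.248 for whole kidney.

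At baseline Igfbp5 and Igfbp7 had the highest levels of the 10 members in every tissue. Levels between genes are given per length, as the deposited RPKM (glomeruli, S1) or FPKM (whole kidney) divided by the library's TMM factor within its tissue, called scaled RPKM or FPKM below. In sham glomeruli Igfbp5 led, with a scaled RPKM from 881 to 3593 and a median of 1357 (n = 11). Igfbp7, which binds IGFs weakly and is also known as an endothelial matrix protein, followed with a median of 904 (644 to 1993). Igfbp2 had a median of 135 (64.9 to 276), and the other members had medians from 1.72 (Igfbp1) to 19.0 (Igf2r). In 10 of 11 sham glomerulus libraries Igfbp5 was above Igfbp7. The ranges of Igfbp7, Igfbp2 and Igf2r did not overlap with one another, while the ranges of the members from Igf2r down to Igf1 and Igfbp3 did.

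In sham S1 tubules Igfbp7 came first with a median scaled RPKM of 341 (164 to 558, n = 11), then Igfbp5 with 122 (73.6 to 344). The growth hormone receptor gene Ghr came next, with a median of 98.2 (53.0 to 159), and its range overlapped that of Igfbp5 and lay above that of Igf2r (39.1, range 24.6 to 49.1). Igf1r had a median of 10.4 and Igfbp1 of 7.83. The ligand gene Igf1 was the lowest member, at a median of 0.938 from 10 to 157 reads per library, so its S1 values carry large counting error.

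Whole kidney, a mix of all segments, vessels and interstitium, had the order Igfbp7 (median scaled FPKM 451), Igfbp5 (167) and Ghr (83.1), with ranges that did not overlap over 12 sham libraries. Igfbp3, the main carrier of IGFs in blood, had a median of 28.6 (9.13 to 44.0) in whole kidney against 13.6 in glomeruli and 2.15 in S1. Igf1 had a median of 5.56 (3.58 to 9.40). Whole kidney RNA was extracted and made into libraries with other kits than the segments, so its levels stand beside theirs with no test.

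**Figure D1:**
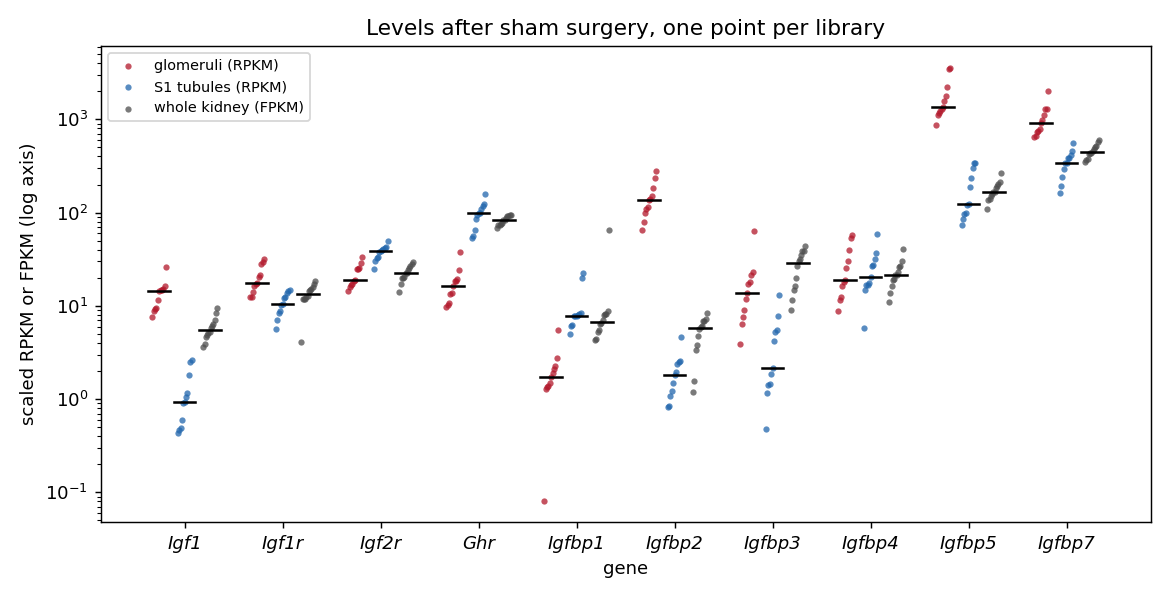
Level of each member after sham surgery, as scaled RPKM or FPKM on a log axis; each point is a library (11 glomeruli, 11 S1, 12 whole kidney) and black lines are medians. Igfbp5 and Igfbp7 stand at the top in all 3 tissues, Ghr has medians of 98.2 in S1 and 83.1 in whole kidney and lies at 9.77 to 37.6 in glomeruli, and Igf1 is the lowest in S1.

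As a share of the summed scaled RPKM of the 6 binding protein genes, Igfbp5 made up a median of 52.8% in sham glomeruli (36.0 to 79.1%) and 24.8% in sham S1 (12.8 to 59.1%). Igfbp7 made up 40.3% and 70.0%. In whole kidney the shares by scaled FPKM were 24.5% for Igfbp5 and 65.7% for Igfbp7. Igfbp5 and Igfbp7 together gave most of the summed level of these 6 genes in each tissue. Igfbp6, which is not a member, was not in the sum. After nephrectomy the medians were 51.7% and 41.9% in glomeruli, 25.8% and 70.4% in S1, and 28.7% and 64.5% in whole kidney.

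The segments themselves differed in most members. In the joint fit of sham libraries, 8 of 10 members passed edgeR's quasi-likelihood test at an adjusted p under 0.05, where 39.7% of all 24488 genes tested passed (21.1% higher and 18.6% lower in glomeruli). Higher in glomeruli were Igfbp2 by 4.54 ± 0.38 (log2, SE), Igf1 by 1.82 ± 0.35 and Igfbp5 by 1.71 ± 0.27. Lower in glomeruli, and so higher in S1, were Ghr (-4.20 ± 0.25), Igfbp1 (-4.16 ± 0.44), Igf2r (-2.49 ± 0.23), Igfbp4 (-1.58 ± 0.36) and Igf1r (-0.79 ± 0.30, adjusted p = 0.0296). Igfbp3 (0.20 ± 0.36) and Igfbp7 (-0.17 ± 0.23) did not pass, with adjusted p of 0.654 and 0.542.

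These differences depend on how the segments are scaled to each other, because the median of all genes was itself shifted: by 0.69 under TMM, by 0.99 under the RLE size factors and by 2.37 when library totals alone were used. For Igfbp2 (4.54 to 6.17), Igf1 (1.82 to 3.48), Igfbp5 (1.71 to 3.35), Ghr (-4.20 to -2.41), Igfbp1 (-4.16 to -2.35) and Igf2r (-2.49 to -0.80) the sign was the same under the 3 scalings. Igf1r went from -0.79 under TMM to -0.49 under RLE (adjusted p = 0.0917) and 0.96 under library totals. Igfbp4 went to 0.06 and Igfbp7 to 1.59 under library totals, so no direction can be given for these members. Igfbp3 passed under library totals (2.01 ± 0.36, adjusted p = 4.9e-06 by edgeR), where 9 members and 87.0% of all genes were called. In bulk samples a level moves both with the number of cells of a type and with the RNA per cell, and these cannot be told apart.

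**Figure D2:**
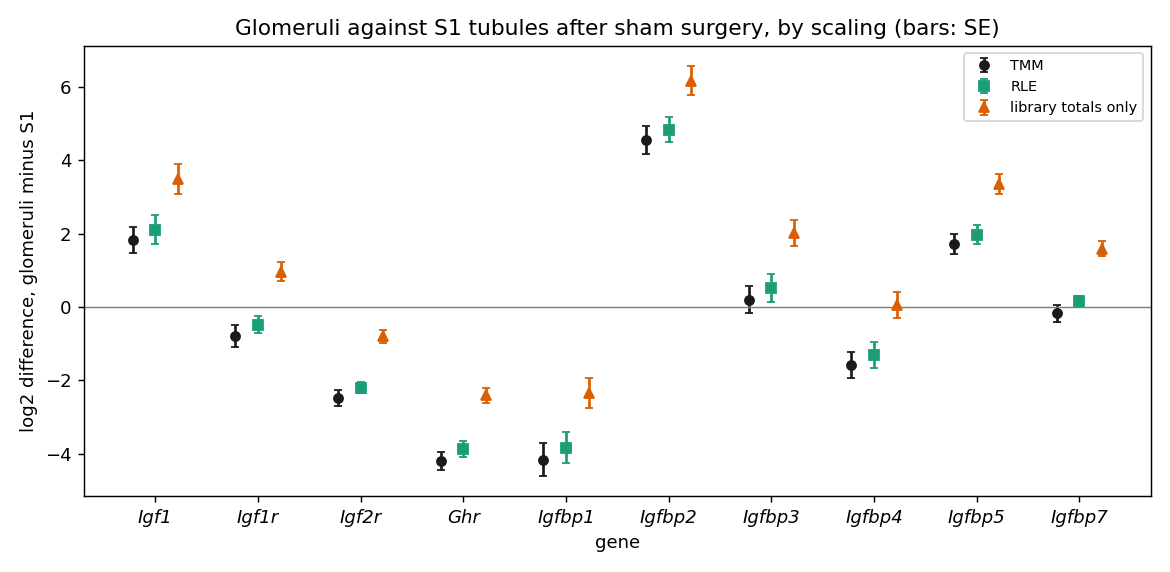
Log2 difference between sham glomeruli and sham S1 for each member, with SE bars, under TMM (black circles), RLE (green squares) and library totals alone (orange triangles). Igfbp2, Igf1 and Igfbp5 lie above 0 and Igf2r, Ghr and Igfbp1 below 0 under all 3, while Igf1r, Igfbp4 and Igfbp7 change side.

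Single libraries of the segments were far apart for these genes. Igfbp2 had scaled RPKM of 64.9 to 276 in 11 sham glomerulus libraries and of 0.833 to 4.66 in 11 sham S1 libraries, with no overlap. These are values scaled within a tissue. Ghr had 9.77 to 37.6 in glomeruli and 53.0 to 159 in S1, again with no overlap. Igfbp1, a secreted binding protein whose gene is repressed by insulin in liver, had 0.0817 to 5.48 in glomeruli, from 1 to 86 reads, and 5 to 22.5 in S1, so that the highest glomerulus library stood above the lowest S1 library on this scale. On CPM scaled by TMM over both segments together, every glomerulus library was above every S1 library for Igfbp2, as for 7.99% of all genes, and below for Igf2r, Ghr and Igfbp1, as for 8.42%. With library totals alone, Igf1, Igfbp2, Igfbp5 and Igfbp7 were above in this way and Ghr and Igfbp1 below. How many of all genes did so on that scale was not counted. Their median was shifted there by 2.37 toward glomeruli, so these members have no share to be read against.

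The promoters of these 3 genes are shown because they carry the largest segment differences under TMM: the 250 bases before the annotated start, from RefSeq (GRCr8), 5′ to 3′ on the gene's strand. All 10 members were found in that table, which gives a single start for each gene, and whether it is the start used in kidney was not tested. Capitals mark matches on either strand to the searched letters GTTAAT (part of an HNF1 site), GTAAACA (FOXO site), CAAAACA (core of the insulin response element), TTCNNNGAA (STAT5 site), GGGCGG (GC box) and TATAAA (a core promoter box). Ghr lies at chr2:54432076-54432325 on the minus strand, Igfbp1 at chr14:86261027-86261276 on the plus strand and Igfbp2 at chr9:81864561-81864810 on the plus strand.
Ghr: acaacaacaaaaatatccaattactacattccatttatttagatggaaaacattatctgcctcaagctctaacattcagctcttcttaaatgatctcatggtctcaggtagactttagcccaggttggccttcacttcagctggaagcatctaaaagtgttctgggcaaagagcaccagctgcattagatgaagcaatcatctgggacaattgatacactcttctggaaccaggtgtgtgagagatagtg
Igfbp1: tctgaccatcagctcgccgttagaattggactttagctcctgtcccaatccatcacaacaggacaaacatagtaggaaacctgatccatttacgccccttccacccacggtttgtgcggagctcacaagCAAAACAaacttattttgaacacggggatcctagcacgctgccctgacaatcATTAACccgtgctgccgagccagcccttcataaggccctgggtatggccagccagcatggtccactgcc
Igfbp2: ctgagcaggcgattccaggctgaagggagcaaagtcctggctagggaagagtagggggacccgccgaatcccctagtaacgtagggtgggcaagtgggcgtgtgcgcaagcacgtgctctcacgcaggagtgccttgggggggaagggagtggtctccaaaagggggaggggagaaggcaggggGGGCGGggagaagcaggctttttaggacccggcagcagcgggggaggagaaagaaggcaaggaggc
The Igfbp1 window held a CAAAACA match that begins at position -121 and a GTTAAT match, on the other strand, that begins at -69, counted from the start. Of 33469 windows of the same length, 5.46% held CAAAACA and 6.45% held GTTAAT. The Igfbp2 window held a GGGCGG match at -66, which 30.47% of windows held, and the Ghr window held none of the 6 motifs. GC content was 40.8% for Ghr, 52.8% for Igfbp1 and 64% for Igfbp2, beside a median of 51.2% over all windows (quartiles 44 and 60%). A match describes the letters and is not a measured site. Among the other members, Igf1 held CAAAACA, Igf1r, Igf2r and Igfbp7 held GGGCGG and Igfbp4 held TATAAA. No member's window held TTCNNNGAA, which 7.67% of all windows held.

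In the annotation some of the binding protein genes lie in pairs, with no other protein-coding gene between. Igfbp1 is next to Igfbp3 on chromosome 14, and Igfbp2 is next to Igfbp5 on chromosome 9. Igfbp4, on chromosome 10, and Igfbp7, elsewhere on chromosome 14, have no other member beside them. The genes of the chromosome 9 pair were both higher in glomeruli. Of the chromosome 14 pair, Igfbp1 was lower in glomeruli and Igfbp3 did not pass under TMM, and whether the pair differs was not tested.

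Nephrectomy was compared with sham to ask how the remaining kidney responds in its first 3 days. No member passed the adjusted threshold in any of the 3 tissues, at any of the 3 times or over their mean, in edgeR's test. This count of 0 stands beside few calls among all genes. In whole kidney 2.86% of 15678 genes passed over the mean of 3 times, 0.236% at 24 h, 0% at 48 h and 0.00638% at 72 h. In glomeruli (22405 genes) and in S1 (18372 genes) 0% passed at every time and over the mean. DESeq2 called 2 members in whole kidney over the 3 times (3.71% of genes) and 1 at 24 h (1.32%), and none at 48 h (0.705%) or 72 h (0.0299%). It called no member in S1, where 0.01%, 0.0502% and 3.22% of genes passed at 24, 48 and 72 h and 0.0268% over the 3 times. It called none in glomeruli either, where these shares were 0.00663%, 0.00663%, 0.00332% and 0.00995%. The DESeq2 shares are over all genes with any read, including any given no adjusted p, and so have a wider base than the edgeR shares. limma on log2(value + 1) called no member in the 3 tissues, where 0% to 0.00808% of genes passed. At an unadjusted p under 0.05 over the 3 times there were 2 members in whole kidney (17.5% of all genes), 2 in S1 (2.54%) and 0 in glomeruli (2.11%). All 4 of these values were below 0, as for 9.34% of all genes in whole kidney and 0.61% in S1.

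**Figure D3:**
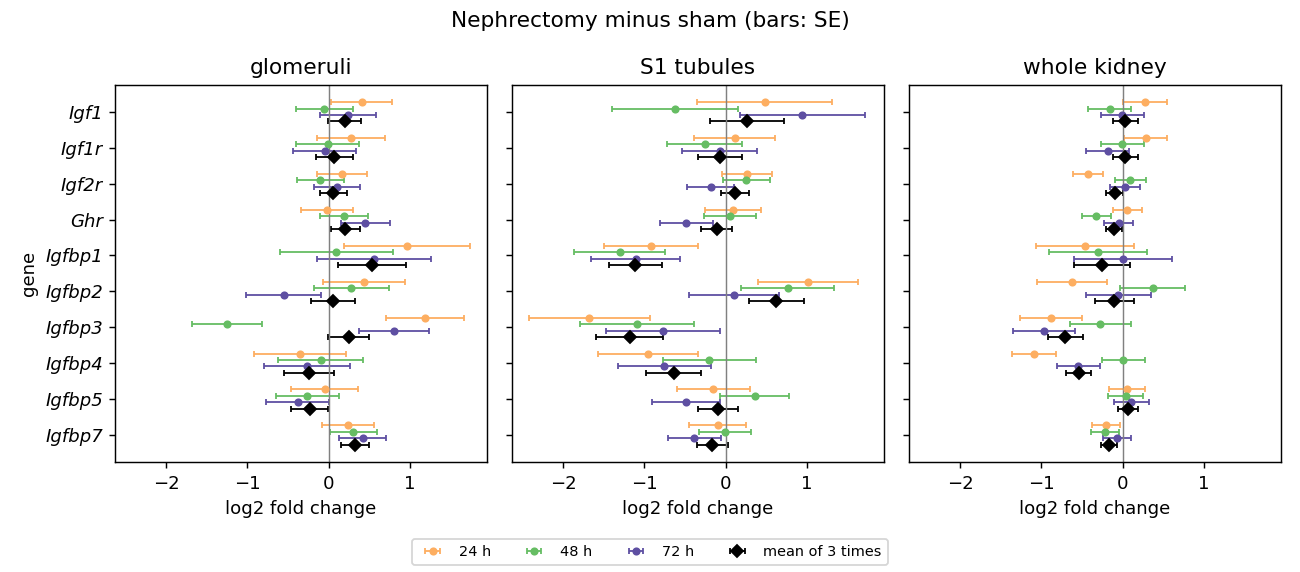
Log2 fold change of nephrectomy against sham for each member in 3 tissues, with SE bars, at 24 h (orange), 48 h (green), 72 h (purple) and as the mean of the 3 times (black diamonds). In whole kidney Igfbp3 (-0.71) and Igfbp4 (-0.54) lie farthest from 0, in S1 Igfbp1 (-1.11) and Igfbp3 (-1.18), and in glomeruli Igfbp3 lies on different sides of 0 at different times.

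The ligand and receptor genes did not pass the test in whole kidney. Over the 3 times the log2 fold change was 0.04 ± 0.15 for Igf1 (adjusted p = 0.933 by edgeR), 0.03 ± 0.15 for Igf1r (0.935), -0.10 ± 0.11 for Igf2r (0.677) and -0.11 ± 0.10 for Ghr (0.632). Igf1 had scaled FPKM of 3.898, 4.62, 9.40 and 8.35 in the sham and 6.85, 6.58, 7.47 and 10.9 in the nephrectomy libraries at 24 h. At 48 h it had 6.15, 3.58, 6.37 and 5.09 against 5.32, 3.96, 4.54 and 5.15, and at 72 h 7.003, 5.29, 4.89 and 5.84 against 8.60, 4.79, 3.79 and 5.72. The groups overlapped at each time. At 24 h the libraries with numbers 3 and 4 were above the others of their group, but nephrectomy number 3 only by little (7.47 against 6.85). For Ghr, the receptor that starts the pathway, every nephrectomy library at 48 h (76.1, 74.8, 72.2 and 42.6) was below every sham library (76.4, 83.7, 95.4 and 77.7). Its fold change at that time was -0.33 ± 0.18 with an unadjusted p of 0.0813 and an adjusted p by edgeR above the threshold, and 3.81% of all genes were below in the same way.

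Among binding proteins in whole kidney, Igfbp4 and Igfbp3 were the members with an unadjusted p under 0.05 over the 3 times, both with lower values after nephrectomy. Igfbp4, which binds IGFs and is cut by the protease Pappa, had scaled FPKM of 26.1, 30.5, 10.98 and 21.3 in sham and 10.6, 11.3, 7.99 and 11.7 in nephrectomy libraries at 24 h. At 48 h the values were 22.9, 40.3, 13.8 and 27.0 against 32.8, 25.3, 18.7 and 28.0. At 72 h they were 16.2, 19.3, 21.3 and 19.2 against 11.7, 12.1, 14.5 and 13.7. The 24 h groups overlapped through sham library number 3 alone, the 48 h groups overlapped fully, and at 72 h every nephrectomy library was below every sham library, as were 5.43% of all genes.

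The log2 fold change of Igfbp4 was -1.09 ± 0.27 at 24 h (adjusted p = 0.0754 by edgeR), 0.01 ± 0.26 at 48 h and -0.54 ± 0.27 at 72 h. Over the 3 times it was -0.54 ± 0.15 (adjusted p = 0.0572), and 10 of 12 nephrectomy libraries had less Igfbp4 than the mean of the sham libraries at their time. Here and below, such counts rest on 3 sham means, which a single high library can raise. They were not made for all genes. The difference between times had an unadjusted p of 0.0268 and an adjusted p of 0.870. Igfbp4 thus stood just outside the threshold, and the call depended on the setting. DESeq2 called it at 24 h (-1.10, adjusted p = 0.00909) and over the 3 times (-0.55, adjusted p = 0.0166), among 23396 genes with any read. Without sham 24 h library number 3, edgeR called it at 24 h (-1.31, adjusted p = 0.00722) and over the 3 times (-0.62, adjusted p = 0.0126). It was also called over the 3 times without nephrectomy 48 h number 1 (-0.58, adjusted p = 0.0409) and, at 24 h (-1.09, 0.0472) and over the 3 times (-0.61, 0.0189), without sham 48 h number 3. Without sham 24 h number 3, 364 genes were called at 24 h and 621 over the 3 times. With all libraries these counts were 37 and 448. Without sham 48 h number 3 they were 69 and 507, and without nephrectomy 48 h number 1, 568 over the 3 times. No other run that left out a single library called Igfbp4. Under RLE, library totals alone, no count filter and limma, no member was called at 24 h or over the 3 times. Under a replicate block Igfbp4 was called at 24 h and over the 3 times, with values and calls over all genes given further below.

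Igfbp3 had scaled FPKM of 14.9, 27.0, 9.13 and 16.4 in sham and 12.2, 12.3, 6.62 and 5.27 in nephrectomy libraries at 24 h. At 48 h the values were 44.0, 39.2, 19.8 and 38.9 against 42.0, 31.8, 30.4 and 13.2. At 72 h they were 11.7, 31.6, 30.1 and 35.4 against 9.55, 14.6, 18.6 and 12.9. The groups overlapped at each time, and 11 of 12 nephrectomy libraries had less Igfbp3 than the time-matched sham mean. Its log2 fold change was -0.71 ± 0.22 over the 3 times (adjusted p = 0.0857 by edgeR), with -0.88 ± 0.38 at 24 h, -0.27 ± 0.38 at 48 h and -0.97 ± 0.38 at 72 h. DESeq2 called it over the 3 times (-0.71, adjusted p = 0.027), and edgeR did so without sham 24 h number 3 (-0.77, 0.0453) or without sham 72 h number 1 (-0.80, 0.0402). Over all genes these edgeR runs called 621 and 420, against 448 with all libraries. Igfbp3 was also called over the 3 times under the replicate block, as given further below.

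**Figure D4:**
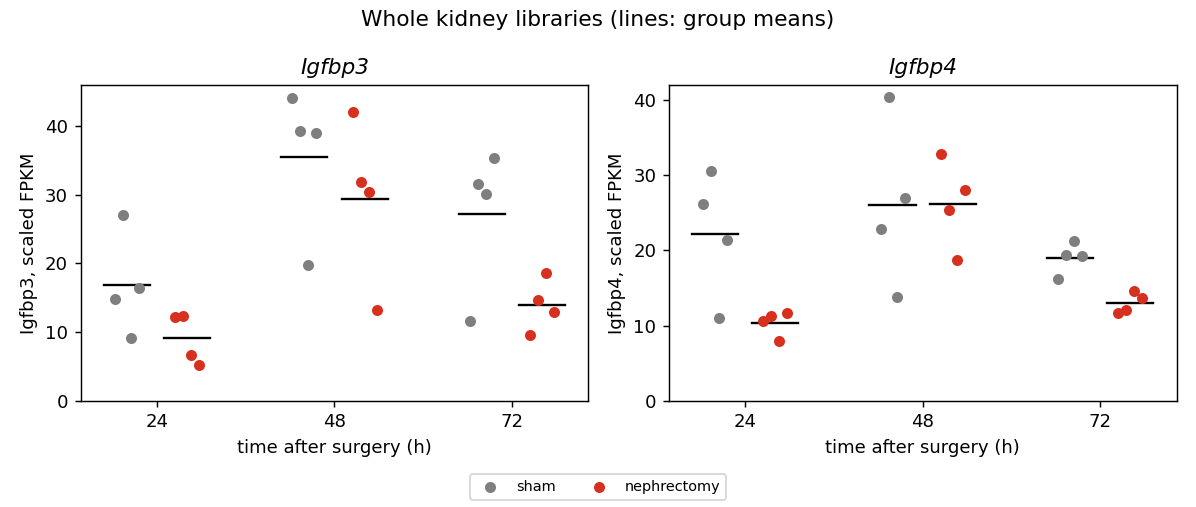
Igfbp3 (left) and Igfbp4 (right) in whole kidney as scaled FPKM by time after surgery; each point is a library, grey for sham and red for nephrectomy, and lines are group means. The Igfbp4 groups separate at 72 h (11.7 to 14.5 against 16.2 to 21.3) and overlap at 24 and 48 h, and the Igfbp3 groups overlap at every time.

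Markers of the proximal tubule moved with these values. Over the 3 times all 10 were lower in nephrectomy whole kidney (median log2 fold change -0.82, 1 called, 9 with an unadjusted p under 0.05), and at 24 h the median was -1.94. Their summed scaled FPKM was 484 to 1106 in nephrectomy and 653 to 1415 in sham libraries, and the 24 h libraries with numbers 3 and 4 were the lowest of their groups after either surgery. The sum hides unlike markers. In those 4 libraries Slc5a2 was 0.182 to 0.893, against 8.84 to 136 in the other whole kidney libraries. Lrp2 (206 to 274) and Cubn (63.9 to 93.7) were not low in them. Podocyte (5 of 10 above 0), endothelial (3 of 9) and fibroblast markers (4 of 7) had medians of -0.01, -0.03 and 0.04. Immune markers (3 of 10 above 0) had a median of -0.06 over the 3 times, but of -0.37 at 24 h (2 of 10 above 0) and -0.19 at 72 h (1 of 10), with 0 called. Their summed scaled FPKM was 172 to 239 after nephrectomy and 264 to 417 after sham at 24 h, with no overlap, and 217 to 305 against 285 to 395 at 72 h. Loop and distal tubule markers (8 of 8 tested above 0) had a median of 0.14. The part of these markers in the values of Igfbp3 and Igfbp4 was not tested.

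Without the 4 libraries numbered 3 and 4 at 24 h, 16.4% of genes passed at 24 h and 4 members were among them: Igfbp4 (-1.38 ± 0.32, adjusted p = 0.00833), Igfbp1 (-2.53 ± 0.60, 0.00898), Igfbp5 (0.74 ± 0.20, 0.0195) and Igf2r (-0.57 ± 0.19, 0.0470), all by edgeR with 2 libraries left in each 24 h group, whose spread is assumed to be that of the other groups. Over the 3 times Igfbp4 passed (-0.64 ± 0.15, adjusted p = 0.0210), where 4.87% of genes did. The proximal tubule markers still had a median of -1.73 at 24 h and -0.79 over the 3 times, with 7 of 10 called lower in each. These markers include Slc5a2, in which the left-out libraries stood apart. No label sets those libraries apart, so this run rests on values of these data and is not an independent check. The value of Igfbp1 here rests on a single library: at 24 h its scaled FPKM was 6.46, 65.5, 8.85 and 7.98 in sham and 5.99, 6.50, 43.4 and 11.01 in nephrectomy libraries. Sham number 2 and nephrectomy number 3 stood far above the rest, and the other 22 whole kidney libraries had 4.04 to 11.01. With all libraries its fold change at 24 h was -0.47 ± 0.60, and without sham number 2 it was 1.05.

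Igfbp7 in whole kidney was under the time-matched sham mean in 12 of 12 nephrectomy libraries, with a small fold change of -0.17 ± 0.10 (adjusted p = 0.405 by edgeR). Its scaled FPKM was 281 to 498 after nephrectomy and 348 to 599 after sham, and the groups overlapped. The 12 libraries were set against 3 sham means, so they are not 12 independent signs. Igfbp5 (0.07 ± 0.13), Igfbp2 (-0.10 ± 0.24) and Igfbp1 (-0.25 ± 0.35) had values within about 1 SE of 0 over the 3 times. Over all 10 members the median log2 fold change was -0.10, with 7 below 0, beside a median of -0.01 over all genes.

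In S1 tubules Igfbp1 and Igfbp3 had fold changes below 0 at each time, without passing the adjusted threshold, and 2 of these values rested on 1 sham library each (Igfbp1 at 24 h and Igfbp3 at 48 h). Igfbp1 had scaled RPKM of 22.5, 5 and 7.72 in sham and 5.13, 13.1, 1.97 and 4.75 in nephrectomy libraries at 24 h. At 48 h the values were 7.77, 6.09, 8.13 and 7.83 against 4.14, 4.02, 2.00 and 1.87. At 72 h they were 6.26, 19.7, 8.32 and 7.98 against 9.11, 2.22, 6.20 and 1.66. At 48 h every nephrectomy library was below every sham library, as were 2.81% of all genes, and at 24 and 72 h the groups overlapped. The log2 fold change over the 3 times was -1.11 ± 0.32 (unadjusted p of 0.00216, adjusted p of 1.00 by edgeR), and 11 of 12 nephrectomy libraries were under the mean of the time-matched sham libraries. Leaving out any single library kept it between -1.33 and -0.81, but at 24 h it was -0.03 without sham number 1 against -0.92 with it.

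Igfbp3 in S1 had scaled RPKM of 7.79, 5.54 and 4.23 in sham and 2.37, 2.74, 1.20 and 0.966 in nephrectomy libraries at 24 h. At 48 h the values were 13.1, 1.17, 2.15 and 0.477 against 2.05, 2.13, 1.48 and 2.23, and at 72 h 1.45, 5.31, 1.43 and 1.86 against 0.455, 2.503, 2.36 and 0.651. At 24 h the groups did not overlap, as for 1.58% of all genes that were below. At 24 h endothelial markers (1 of 9 above 0, median -0.41) and fibroblast markers (0 of 6, median -0.96) had mostly negative values, with 0 called. Their summed scaled RPKM was 18.6 to 60.4 after nephrectomy against 37.0 to 43.8 after sham, and 3.61 to 6.44 against 4.86 to 14.7, and their part in the Igfbp3 values was not tested. At 48 and 72 h the Igfbp3 groups overlapped, the 48 h median was 2.09 after nephrectomy and 1.66 after sham, and the sham mean was raised there by sham 48 h number 1 and sham 72 h number 2. All 12 nephrectomy libraries were under the mean of the time-matched sham libraries. The fold change was -1.18 ± 0.41 over the 3 times (unadjusted p of 0.00849, adjusted p of 1.00 by edgeR), and -0.60 ± 0.33 without sham 48 h number 1, where the 48 h value turned from -1.09 to 0.66.

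**Figure D5:**
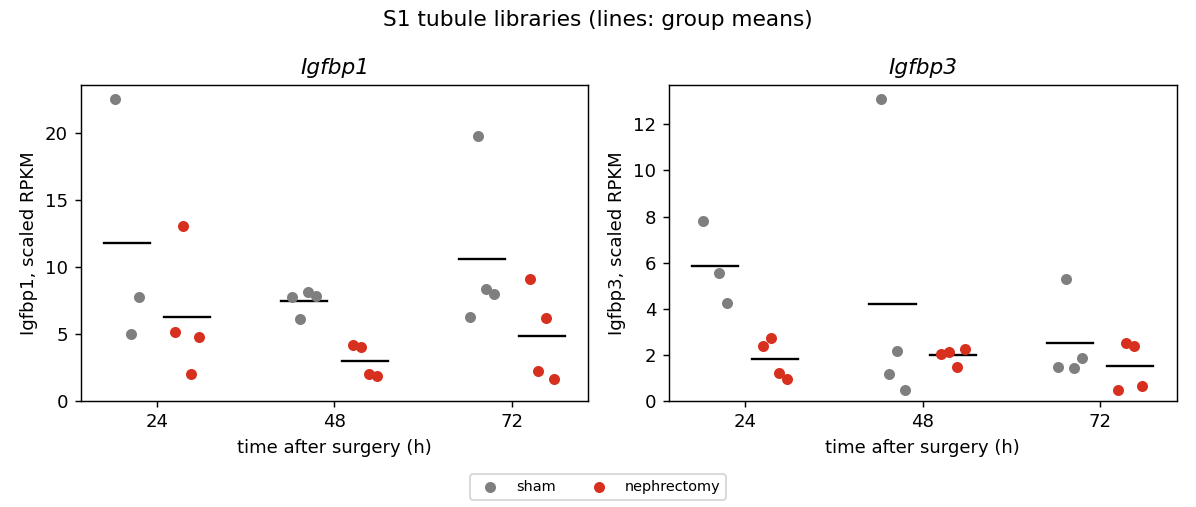
Igfbp1 (left) and Igfbp3 (right) in S1 tubules as scaled RPKM by time after surgery; points are libraries, grey for sham and red for nephrectomy, and lines are group means. Igfbp1 separates at 48 h and Igfbp3 at 24 h, and single high sham libraries (Igfbp1 22.5 and 19.7, Igfbp3 13.1) raise other sham means.

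The other members in S1 had larger errors than differences in most cases. Igfbp2 was 0.63 ± 0.33 (unadjusted p of 0.0727), over the time-matched sham mean in 10 of 12 libraries, and Igfbp4 was -0.64 ± 0.34 (unadjusted p of 0.0720). Igf1 (0.27 ± 0.46), Igf1r (-0.07 ± 0.27), Igf2r (0.11 ± 0.17), Ghr (-0.11 ± 0.19), Igfbp5 (-0.09 ± 0.25) and Igfbp7 (-0.16 ± 0.19) gave unadjusted p from 0.408 to 0.798. Each of these 8 had an adjusted p of 1.00 by edgeR. At 48 h Igf1r was below every sham library in every nephrectomy library (10.5 to 11.9 against 12.1 to 14.7), as were 2.81% of all genes, with a fold change of -0.26 ± 0.46. Nephrectomy 72 h number 2, in which gene counts were 8.05% of uniquely placed reads, had an Igf1r level of 0.491 against 10.8 to 11.99 in the other 3 libraries. Without it the S1 values were -1.04 for Igfbp1 and -1.29 for Igfbp3. Collecting duct markers were above 0 for 8 of 9 in this comparison (median 0.60, 0 called, summed scaled RPKM 15.0 to 140 after nephrectomy and 15.4 to 40.8 after sham), and their part in the results was not tested.

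In glomeruli the largest values at single times were those of Igfbp3, and they lay on different sides of 0 at different times. Its scaled RPKM was 7.67, 9.09 and 17.3 in sham and 24.9, 16.9, 42.2 and 18.9 in nephrectomy libraries at 24 h. At 48 h the values were 22.9, 64.0, 21.2 and 18.3 against 20.3, 10.6, 14.0 and 8.14, and at 72 h 3.87, 6.41, 13.6 and 11.97 against 11.5, 11.4, 20.9 and 19.0. Nephrectomy libraries were the higher ones at 24 and 72 h and the lower ones at 48 h, and the groups overlapped at each time. The log2 fold change was 1.19 ± 0.48 at 24 h (unadjusted p of 0.0198), -1.25 ± 0.44 at 48 h (unadjusted p of 0.0079) and 0.80 ± 0.43 at 72 h, with adjusted p of 1.00 each by edgeR. The test of the difference between times gave an unadjusted p of 0.00134 and an adjusted p of 1.00. Without sham 48 h number 2 the 48 h value was -0.60 ± 0.44.

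Across the sham glomerulus libraries alone, the test between times gave an unadjusted p of 0.000507 for Igfbp3 (adjusted p = 0.227 by edgeR). Ghr in sham glomeruli had scaled RPKM of 18.4, 16.4 and 10.3 at 24 h, 18.6, 37.6, 19.4 and 24.2 at 48 h, and 13.5, 13.7, 9.77 and 10.8 at 72 h (unadjusted p of 0.00458, adjusted p of 0.268 by edgeR). The 48 h sham libraries included the highest values of both genes. Ghr after nephrectomy was also highest at 48 h, with 35.4, 26.1, 33.7 and 18.8, so its fold change over the 3 times was 0.21 ± 0.18. The sham times differed with an adjusted p under 0.05 for 0.0223% of all genes.

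The remaining members in glomeruli had values within 2 SE of 0 over the 3 times, from -0.24 ± 0.31 (Igfbp4) to 0.54 ± 0.42 (Igfbp1), with adjusted p of 1.00 by edgeR. Igf1 was 0.20 ± 0.21, Igf1r 0.07 ± 0.23 and Igf2r 0.06 ± 0.17. Igfbp7 was 0.32 ± 0.17 (unadjusted p of 0.0762), over the time-matched sham mean in 10 of 12 libraries, and Igfbp5 was -0.23 ± 0.23. Nephrectomy 72 h number 3, with 2643258 gene counts, was the highest for Igf1 (31.9) and the lowest for Igf1r (3.96) and Igfbp2 (40.2) among its group. Without it Igf1r was 0.17 and Igf1 0.07 over the 3 times.

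The effect of nephrectomy was set against itself between the segments. Its log2 difference, glomeruli minus S1, was 1.62 ± 0.54 for Igfbp1 (unadjusted p of 0.00426) and 1.498 ± 0.499 for Igfbp3 (unadjusted p of 0.00432), each with an adjusted p of 1.00 by edgeR. These were the 2 members with an unadjusted p under 0.05, a level that 2.54% of all 24488 genes reached (0.927% with a higher value in glomeruli). No gene passed the adjusted threshold (0%), and DESeq2 called 0 members. For both genes the value over the 3 times was below 0 in S1 and above 0 in glomeruli (0.54 and 0.25), with no called difference between the segments.

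Other genes of the pathway were counted from a list of 44 (other ligands, carriers and proteases, other receptors, and signalling genes downstream of both receptors). None was called in any comparison of nephrectomy with sham in edgeR's test, with 44 tested in glomeruli, 40 in S1 and 43 in whole kidney. At an unadjusted p under 0.05 over the 3 times there were 2 in glomeruli (1 higher, 1 lower), 3 in S1 (1 higher, 2 lower) and 8 in whole kidney (1 higher, 7 lower), beside 2.11%, 2.54% and 17.5% of all genes. The 8 of 43 in whole kidney are near that share. In whole kidney the smallest p belonged to Stc1, whose product stanniocalcin inhibits Pappa (-0.61 ± 0.20, adjusted p = 0.0996), Htra1, a protease (-0.43 ± 0.15, adjusted p = 0.130), and Pdpk1, the kinase that activates Akt (-0.18 ± 0.07, adjusted p = 0.186). In glomeruli the genes with the smallest p included Igf2bp3 (-1.07 ± 0.40) and Pappa2 (1.19 ± 0.58), with adjusted p of 1.00.

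In S1 the smallest p of the list belonged to Pappa, the protease that cuts Igfbp4 (1.60 ± 0.33, unadjusted p of 6.1e-05, adjusted p of 0.804 by edgeR). Its scaled RPKM was 0.659, 0.179 and 0.242 in sham and 0.355, 0.888, 0.580 and 0.489 in nephrectomy libraries at 24 h. At 48 h it was 0.342, 0.273, 0.593 and 0.193 against 0.869, 1.00, 1.18 and 1.25, and at 72 h 0.519, 0.185, 0.610 and 0.210 against 1.63, 5.04, 1.33 and 0.771. Every nephrectomy library was above every sham library at 48 h, as were 2.92% of all genes, and at 72 h, as were 0.664%. These were levels near or under 1 except for the 5.04 of nephrectomy 72 h number 2. Irs2, an adaptor of the insulin and IGF receptors, was -0.72 ± 0.20 and Cish, an inhibitor that growth hormone signalling induces, was -0.86 ± 0.33, each with an adjusted p of 1.00.

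Between sham glomeruli and sham S1, 29 of the 44 genes passed under TMM, 17 higher and 12 lower in glomeruli, where 39.7% of all genes passed. Under library totals 36 were higher and 3 lower, where 87.0% of all genes passed, so the split depends on the scaling. The genes named here were chosen after their values were seen. Among growth hormone signalling genes, Socs3 was higher in glomeruli (5.56 under TMM, 7.16 under library totals), as was Socs2 (2.56 and 4.21), while Cish was higher in S1 (-3.37 and -1.63). Prlr, the prolactin receptor related to Ghr, was also higher in S1 (-5.39 and -3.60), as was Igfals, whose product binds IGFs together with Igfbp3 in blood (-5.95 and -4.25). Stc1 was higher in glomeruli (2.91 and 4.62). The insulin receptor gene Insr changed side with the scaling (-1.61 and 0.15). Of the 12 called lower under TMM, the 3 genes Igfals, Prlr and Cish were also called lower under library totals.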

How the data were processed

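Whole-number counts per gene were deposited; for these the submitters' processing notes name Trimmomatic 0.32, STAR 2.4.0.1, SAMtools and HTSeq. The deposited RPKM (segments) and FPKM (whole kidney) are values of the authors, per the file headers. Genome build, annotation and strand setting: not given in the sources used here. It follows that counts of overlapping or antisense genes may include each other's reads. Per the labels, segment RNA was amplified with a NuGEN Ovation kit and read single-end, and whole kidney RNA went into stranded paired-end TruSeq libraries. The 5 HTSeq summary entries were kept out of totals and tests. In the libraries used, gene counts were 2.92 to 40.1% of uniquely placed reads in glomeruli, 8.05 to 77.4% in S1 and 60.2 to 88.4% in whole kidney.

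In R 4.3.3, edgeR 4.0.16 was fitted per tissue with a mean for each group, TMM and filterByExpr (minimum count 10), and once to both segments together. Its quasi-likelihood test gave all p-values unless another tool is named, with Benjamini-Hochberg adjustment over all genes tested and a threshold of 0.05. Each SE was obtained by dividing the absolute log2 fold change by the root of its F statistic. Alternatives were DESeq2 1.42.0, limma 3.58.1 on log2 of the deposited RPKM or FPKM + 1 (mean of at least 1), RLE, library totals alone, no filter, a replicate block, and libraries left out or put back. The code was tested on simulated data.

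The members, the 44 other pathway genes and the marker lists were chosen with earlier results of these data known. All 10 members are named, and of the list the 3 genes with the smallest p over the 3 times in each tissue, except that some genes are not reported here. Where a symbol had several gene IDs, the ID with the highest total count was used. Among 102 pairs of libraries within groups none were copies: chi-square over its degrees of freedom was at least 5.99. Reads carry no molecular identifiers.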

Additional observations from a re-analysis of the deposited data

Results flagged for a closer look

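The 10 members were each examined in the 16 groups with 4 libraries, which gave 160 sets of 4 values. In 18 of these sets 1 library stood apart from the other 3 by Dixon's criterion. For normally distributed values chance alone gives about 1 in 20 sets. The levels were used without a log and their distribution was not tested, so 18 of 160 cannot be read against that rate. The sets also share libraries and are not independent. Values are scaled RPKM for segments and scaled FPKM for whole kidney, each with the range of the other 3 libraries of its group.

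Igfbp1 stood apart most often. In whole kidney it was 65.5 in sham 24 h number 2 (others 6.46 to 8.85), 43.4 in nephrectomy 24 h number 3 (5.99 to 11.01) and 4.71 in nephrectomy 72 h number 2 (6.11 to 6.32). In glomeruli it was 5.49 in nephrectomy 24 h number 2 (0.817 to 1.61) and 2.08 in sham 72 h number 1 (1.28 to 1.38). In S1 it was 19.7 in sham 72 h number 2 (6.26 to 8.32).

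Igfbp3 was 13.1 in S1 sham 48 h number 1 (0.477 to 2.15), 5.31 in S1 sham 72 h number 2 (1.43 to 1.86) and 64.0 in glomerulus sham 48 h number 2 (18.3 to 22.9). Igfbp4 was 39.8 in S1 nephrectomy 24 h number 4 (10.8 to 12.1) and 22.9 in glomerulus nephrectomy 48 h number 1 (12.99 to 14.7). Igfbp7 was 281 in whole kidney nephrectomy 24 h number 3 (405 to 424).

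Ghr was 42.6 in whole kidney nephrectomy 48 h number 4 (72.2 to 76.1) and 67.7 in whole kidney sham 24 h number 2 (91.1 to 94.97). Igf1 was 31.9 in glomerulus nephrectomy 72 h number 3 (13.7 to 15.5). Igf1r was 0.491 in S1 nephrectomy 72 h number 2 (10.8 to 11.99) and 16.0 in glomerulus nephrectomy 48 h number 4 (29.3 to 31.1). Igf2r was 32.4 in glomerulus nephrectomy 72 h number 2 (15.1 to 17.2).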

How the results depend on the processing

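Over 60 log2 differences with a sign and 20 counts of called members, removing the count filter changed no direction or call. Library totals alone and the mean of 48 and 72 h were chosen after seeing the data. The cause of each change below was not tested.

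In whole kidney at 24 h, 0 members were called by edgeR, 1 by DESeq2, 1 with a replicate block and 4 without the 24 h libraries numbered 3 and 4. Over the 3 times these counts were 0, 2, 2 and 1. The sham times differed for 1 member in whole kidney without those 4 libraries, and in glomeruli for 1 with DESeq2 and for 2 with sham 24 h number 2 put back. The shares of all genes under these settings are not reported here, so these counts have no background. The glomerulus library put back had a mean podocyte marker value of 1.57 against 7.44 to 8.70 in the others. In whole kidney, leaving out single libraries gave 0 to 1 called members at 24 h and 0 to 2 over the 3 times. Over all genes, calls in whole kidney at 24 h numbered 37 with edgeR, 309 with DESeq2, 124 with the block, 2645 without the 4 libraries and 1 with limma, and over the 3 times 448, 869, 450, 785 and 0. At 48 h they were 0 with edgeR and 165 with DESeq2, and at 72 h 1 and 7. Between the segments they were 9721 with TMM and 21296 with library totals.

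The replicate numbers were not taken to pair the libraries, since the labels do not say so. Deviations from group means correlated over 0.1 in 6 of 12 whole kidney pairs, 2 of 11 glomerulus pairs and 5 of 11 S1 pairs. In whole kidney these correlations ran from -0.078 to 0.295. In the same order, 8 of 24, 5 of 22 and 7 of 22 libraries correlated best with their own number. These values do not settle whether the numbers pair the libraries. At 72 h in whole kidney all 4 pairs were over 0.1 (0.12 to 0.29), and the block called 0 members there. In whole kidney at 24 h, numbers 3 and 4 stood apart from numbers 1 and 2 in the marker Slc5a2 after either surgery. The main fit has no term for this split and counts it as variation within a group. Between sham glomeruli and sham S1 8 of 11 pairs were over 0.1 (up to 0.50). Under the replicate block Igfbp4 was -1.03 at 24 h (adjusted p = 0.0233 by edgeR) and -0.50 over the 3 times (0.0259), and Igfbp3 was -0.70 over the 3 times (0.0468). The block called 7 members between sham segments, with Igf1r lost (0.0857), and the share of all genes called there is not reported here. The test between sham times was not run under the block, and limma was not run between segments.

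Signs turned mostly for values near 0. Over the 3 times in glomeruli, Igf1r was -0.067 with library totals, -0.13 with limma, -0.21 with sham 24 h number 2 put back and -0.031 over 48 and 72 h. Igf2r was -0.0233 with totals, -0.0227 with limma and -0.46 with that library. Igfbp2 was -0.062, -0.11 and, over 48 and 72 h, -0.14, and Igfbp3 was -0.22 over 48 and 72 h. With that library Ghr was -0.85, Igfbp1 was -1.34 and the Igfbp1 difference between segments was -0.37. In S1, with its own number 2 put back, Igf1 was -0.12, Igf1r 0.010, Ghr 0.00201 and Igfbp2 -0.031. In whole kidney over 48 and 72 h, Igf1 was -0.083, Igf1r -0.091, Igf2r 0.064 and Igfbp2 0.16, and Igfbp5 at 24 h was -0.086 with totals and -0.076 with limma. Between sham segments with totals, Igf1r was 0.96, Igfbp4 0.058 and Igfbp7 1.59, and Igfbp7 was 0.15 with DESeq2 and 0.15 with RLE.

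Leaving out single libraries turned signs within these ranges. In glomeruli they were -0.082 to 0.18 (Igf1r), -0.044 to 0.19 (Igf2r) and -0.12 to 0.18 (Igfbp2). In S1 they were -0.00444 to 0.53 (Igf1), -0.13 to 0.059 (Igf1r), -0.22 to 0.051 (Igfbp5) and -1.43 to 0.66 (Igfbp3 at 48 h). In whole kidney they were -0.053 to 0.11 (Igf1), -0.067 to 0.090 (Igf1r), -0.60 to 0.24 (Igfbp1) and -0.20 to 0.029 (Igfbp2), and at single times -1.51 to 1.05 (Igfbp1, 24 h), -0.12 to 0.30 (Igfbp5, 24 h) and -0.20 to 0.30 (Igfbp4, 48 h). Between sham segments they were -0.023 to 0.82 (Igfbp3) and -0.32 to 0.028 (Igfbp7). Counts of 1 to 86 reads limit Igfbp1 in glomeruli, and 10 to 157 reads limit Igf1 in S1.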

Other observations

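Within whole kidney, the genes whose log2 CPM followed 3 of the members most closely were listed among 9366 named genes with a mean of at least 5 CPM, as a description over 24 libraries that share depth, surgery and time. For Igfbp1 they were Osmr (Pearson's r = 0.898), Tnfrsf1a (0.891) and Maff (0.864), the first 2 receptors for oncostatin M and tumour necrosis factor and the last a small Maf transcription factor. Without the 24 h libraries numbered 3 and 4 these were 0.926, 0.876 and 0.835. Igfbp1 stood far above the rest in sham 24 h number 2 (65.5) and nephrectomy 24 h number 3 (43.4). The smaller set drops the second of these and keeps the first. How far these r values rest on that library was not tested. For Ghr they included Hnmt (0.860) and Gpbp1 (0.855), and without the 4 libraries these were 0.823 and 0.805. For Igf1 they were Adgrl3 (0.868), Mt-nd5 (0.850) and Slc12a1 (0.846), the last the salt transporter of the thick ascending limb, and without the 4 libraries 0.764, 0.727 and 0.718.

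Among members, Igf1 and Igfbp2 ran in opposite directions over the 24 libraries (r = -0.862, and -0.753 without the 4 libraries), and Igfbp3 and Igfbp4 ran together (0.760 and 0.687). These are descriptions without a test, and libraries of a group share their condition.

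In the left-out pair, Ghr and Igfbp2 had deposited RPKM near those of the other segment. The library labelled glomeruli, sham 24 h number 2, had 144 for Ghr and 2.53 for Igfbp2, and the library labelled S1 with the same number had 31.7 and 85.2. Igfbp1 was 65.7 in the library labelled glomeruli and 8.20 in the one labelled S1.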
